A study of Homo sapiens with 3 samples.

Results

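The 34 genes described here encode the enzymes that make nucleotides, serine and the folate-bound one-carbon units that purines and thymidylate need. They are a list given by name, not drawn at random or without knowledge of these data, and were placed at their RefSeq spans on GRCh38, 34 of 19974 protein-coding genes on chromosomes 1 to 22 and X. Every MYC peak whose summit lay inside a gene or within 5000 bp of it was taken as a peak of that gene, and genes without one stayed in the account. MYC was mapped by ChIP-Rx, that is ChIP-seq with mouse NIH3T3 chromatin added as an exogenous reference, in the parental form of U2OS, an osteosarcoma line of human origin, grown without further treatment. The series holds 2 MYC immunoprecipitation libraries and 1 input library, and 1 peak list of 9818 peaks represents them.

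All fold enrichments (immunoprecipitate over control at the summit, a linear ratio) and −log10 q values of single peaks are the authors' own, from that list. Depth is unknown, no value per library was analysed, and none of the values therefore has a replicate error. Differences between genes are described and not tested. A q-value grows with the reads under a peak as well as with its fold, so both are given.

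MYC is a basic helix-loop-helix transcription factor that binds DNA as a dimer with MAX, with a preference for the E-box CACGTG. In proliferating cells purines are built stepwise on phosphoribosyl pyrophosphate, pyrimidines are built as a ring before the sugar is attached, and both rings take nitrogen from glutamine and aspartate. Glycine and formyl folate supply carbon to the purine ring, and methylene folate the methyl group of thymidylate. Serine made from a glycolytic intermediate supplies the one-carbon unit, much of it through a mitochondrial folate branch that exports formate to the cytosol. Several of these genes are long-known MYC targets, and the question addressed here is which steps of the network carried MYC at their promoters in this line, and where.

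Most of the sequences printed below were picked because they hold an E-box or a variant of it, in many cases close to the MYC summit. They are not a sample of the 34 genes. RefSeq promoter sequences (GRCh38.p14, from 250 bases before a listed start to 50 bases from it on, 300 in all) were found for 30 of the 34 genes. ADSL, IMPDH2, PSPH and SHMT2 were not matched. Each sequence below runs 5′ to 3′ along the gene, and the capitals mark the 6-base motif. Offsets count along the gene, with the base at the listed start as 0. Unless stated otherwise this is the start nearest to a summit, which can lie inside the annotated span. Not all of those printed lay close: the E-box of PPAT stood 645 bp from the summit and the upstream one of ATIC 81 bp. The canonical E-boxes found at the start nearest to a summit were the following.
MTHFD1: agtccctaagCACGTGggttgggttg
MTHFD1L: cgcccggctcCACGTGcgcagccggc
ATIC, upstream: gccggcgggcCACGTGataagcccgg
ATIC, downstream: cctacctgcgCACGTGgtgccgccgc
DHODH: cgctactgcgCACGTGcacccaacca
NME1: tgctgcgaacCACGTGggtcccgggc
PPAT: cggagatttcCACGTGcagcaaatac

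The first base of the E-box stood 15 bases before the start in MTHFD1, 1 before it in MTHFD1L, 46 before and 29 after it in ATIC, 159 before it in DHODH, 34 after it in NME1 and 182 before it in PPAT. These sites lie at chr14:64388328-64388353 (+ strand) for MTHFD1, chr6:150866322-150866347 (+) for MTHFD1L, chr2:215312003-215312028 and chr2:215312078-215312103 (+) for ATIC, chr16:72008575-72008600 (+) for DHODH, chr17:51153583-51153608 (+) for NME1 and chr4:56435782-56435807 (−) for PPAT. The PPAT site is also the one that lies 40 bases after a listed start of PAICS on the other strand. A variant E-box, CACGCG or its reverse complement CGCGTG, stood near the summit in MTHFD2 and ADSS2, and 52 bp from it in PFAS. It also stood in DUT and PSAT1, 170 and 212 bp from the summit, and those sites are not printed. The places are chr2:74198581-74198606 (+) for MTHFD2, chr1:244452235-244452260 (−) for ADSS2 and chr17:8249262-8249287 (+) for PFAS.
MTHFD2: gcagtataacCGCGTGgcccgcgcgc
ADSS2: cgacgctccaCACGCGcttccgcgcc
PFAS: gcccgcggcgCACGCGgatgacgtaa

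For longer context, the 250 bases before the start are given for 4 genes with such a motif and for UMPS, which had a summit beside its start and none of the motifs searched (the E-box CACGTG, its variant CACGCG and the further variant CATGTG, on both strands). They are chr14:64388103-64388352, chr2:215311809-215312058, chr16:72008494-72008743, chr2:74198365-74198614 and chr3:124730202-124730451, all on the + strand.
MTHFD1: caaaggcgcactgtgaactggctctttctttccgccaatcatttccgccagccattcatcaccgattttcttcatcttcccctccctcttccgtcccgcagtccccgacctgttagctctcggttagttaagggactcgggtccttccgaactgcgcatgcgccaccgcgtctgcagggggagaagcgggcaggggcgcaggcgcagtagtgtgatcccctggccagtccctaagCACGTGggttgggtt
ATIC: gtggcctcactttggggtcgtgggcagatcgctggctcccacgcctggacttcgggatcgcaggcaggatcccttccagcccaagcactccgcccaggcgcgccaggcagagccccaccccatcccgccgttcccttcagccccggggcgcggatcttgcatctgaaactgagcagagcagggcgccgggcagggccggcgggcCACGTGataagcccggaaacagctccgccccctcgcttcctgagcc
DHODH: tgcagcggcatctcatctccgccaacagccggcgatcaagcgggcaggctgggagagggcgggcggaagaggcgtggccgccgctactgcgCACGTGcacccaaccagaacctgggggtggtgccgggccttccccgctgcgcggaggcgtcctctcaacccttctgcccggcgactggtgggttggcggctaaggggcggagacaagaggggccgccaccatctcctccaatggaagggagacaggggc
MTHFD2: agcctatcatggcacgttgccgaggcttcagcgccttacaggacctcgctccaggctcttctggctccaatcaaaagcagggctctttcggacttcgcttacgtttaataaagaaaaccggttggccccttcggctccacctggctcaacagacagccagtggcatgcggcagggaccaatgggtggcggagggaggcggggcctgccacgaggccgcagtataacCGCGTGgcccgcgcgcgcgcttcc
UMPS: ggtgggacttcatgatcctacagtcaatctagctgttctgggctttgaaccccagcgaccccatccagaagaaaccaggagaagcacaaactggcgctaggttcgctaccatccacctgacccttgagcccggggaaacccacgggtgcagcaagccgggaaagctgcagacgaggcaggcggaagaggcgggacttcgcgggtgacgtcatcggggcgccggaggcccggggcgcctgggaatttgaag

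Of the 34 genes, 29 had a MYC summit inside or within 5000 bp (85.3%), where 47.7% of all protein-coding genes did. Their strongest peaks by −log10 q had a median fold of 21.6, from 5.01 at PSAT1 to 55.9 at NME2, beside a median of 8.56 (quartiles 6.07 and 13.0) over the 9520 protein-coding genes with a peak. The median −log10 q was 241, beside 57.7. A fold of 20 or more was reached by 16 of the 29, beside 9.25% of all protein-coding genes with a peak. The strongest peak lay in the top 10% of the list by −log10 q for 16 of the 29, beside 13.7%. Gene length, which widens the search, had a median of 32840 bp in the 34 genes and 24170 bp in all protein-coding genes. Among genes with a peak it was 32870 and 31306 bp.

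**Figure D1:**
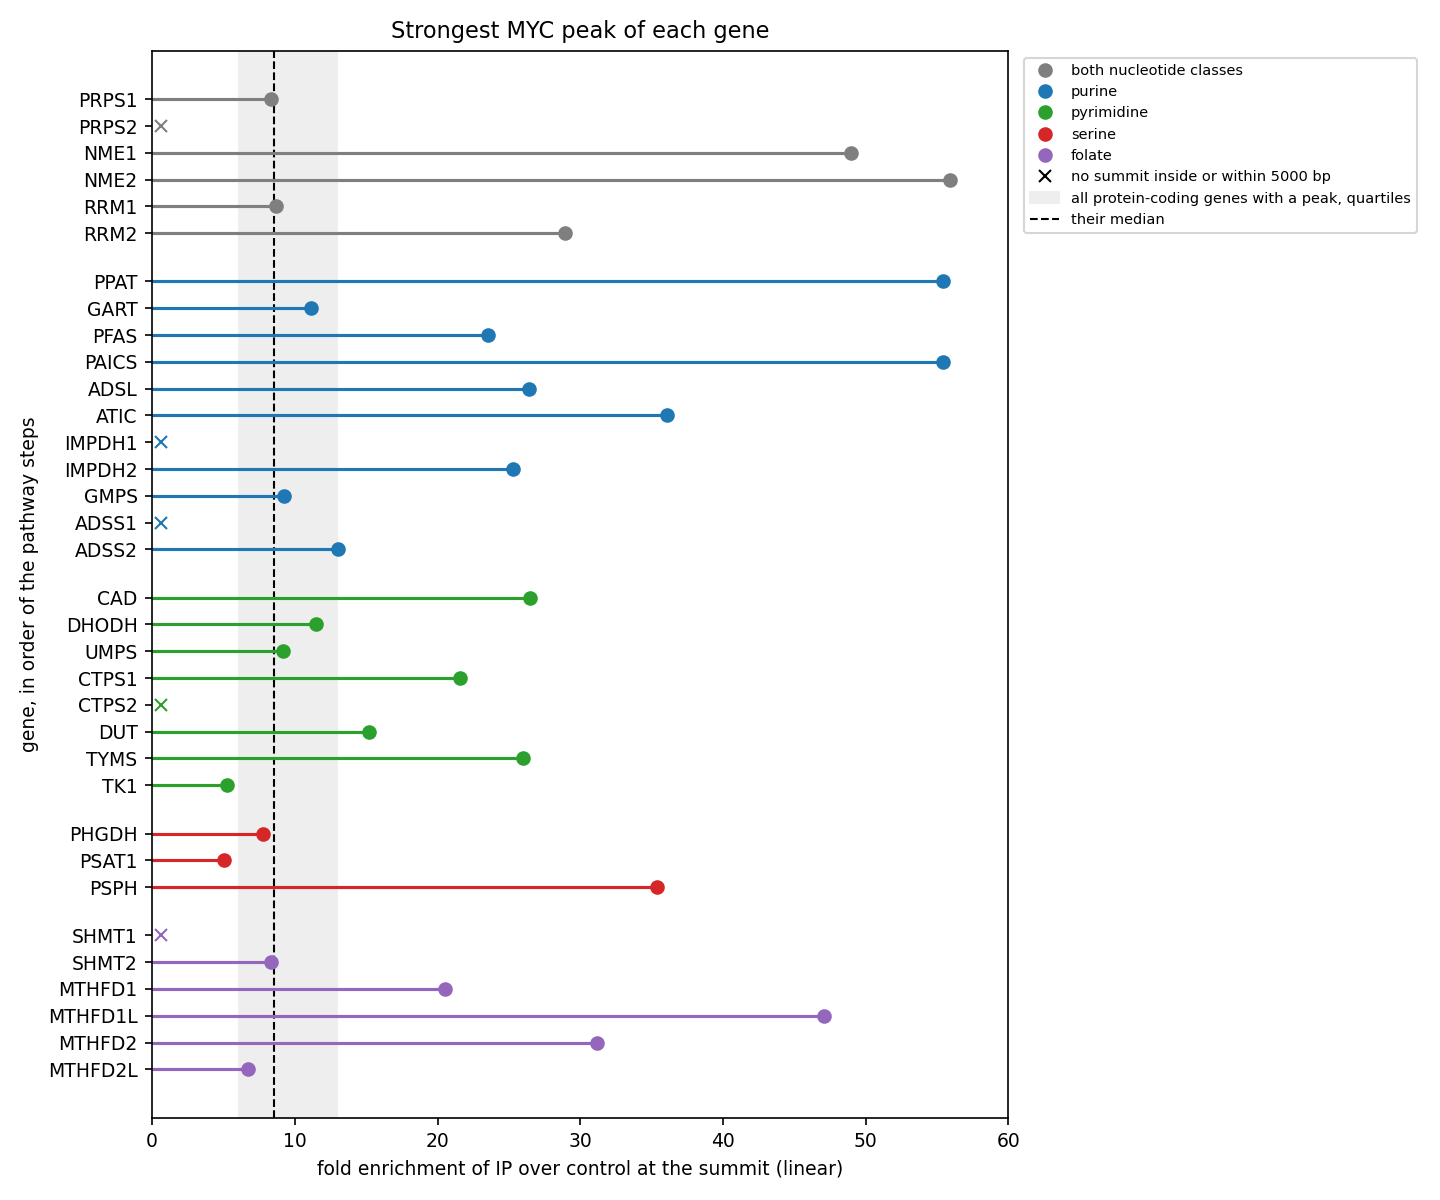
Fold enrichment (linear x axis) of the strongest peak of each of the 34 genes, in pathway order down the y axis and coloured by pathway, with the quartiles (grey band) and median (dashed line) of all protein-coding genes with a peak. Crosses at the left edge mark the 5 genes without a summit inside or within 5000 bp, and 16 genes lie at a fold of 20 or more.

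With the direction of transcription known, 24 of the 30 genes with a listed start had a summit within 1000 bp of one (80.0%), beside 41.5% of the 15812 protein-coding genes with a listed start. Within 250 bp of a start the count was 17, which is 70.8% of the 24 and close to the 72.4% found over all genes with such a summit. The median distance was 168 bp, beside 126 bp over all genes. The summit lay upstream of the start in 9 of the 24 (37.5%) and at or downstream of it in 15, whereas over all genes 58.5% lay upstream. In the 58 other genes of these pathways described at the end, 12 of 33 lay upstream (36.4%), a share close to that of the 24. Genes with several listed starts were read at the start nearest to a summit. The 29 strongest peaks had a median width of 1232 bp, beside 821 bp.

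**Figure D2:**
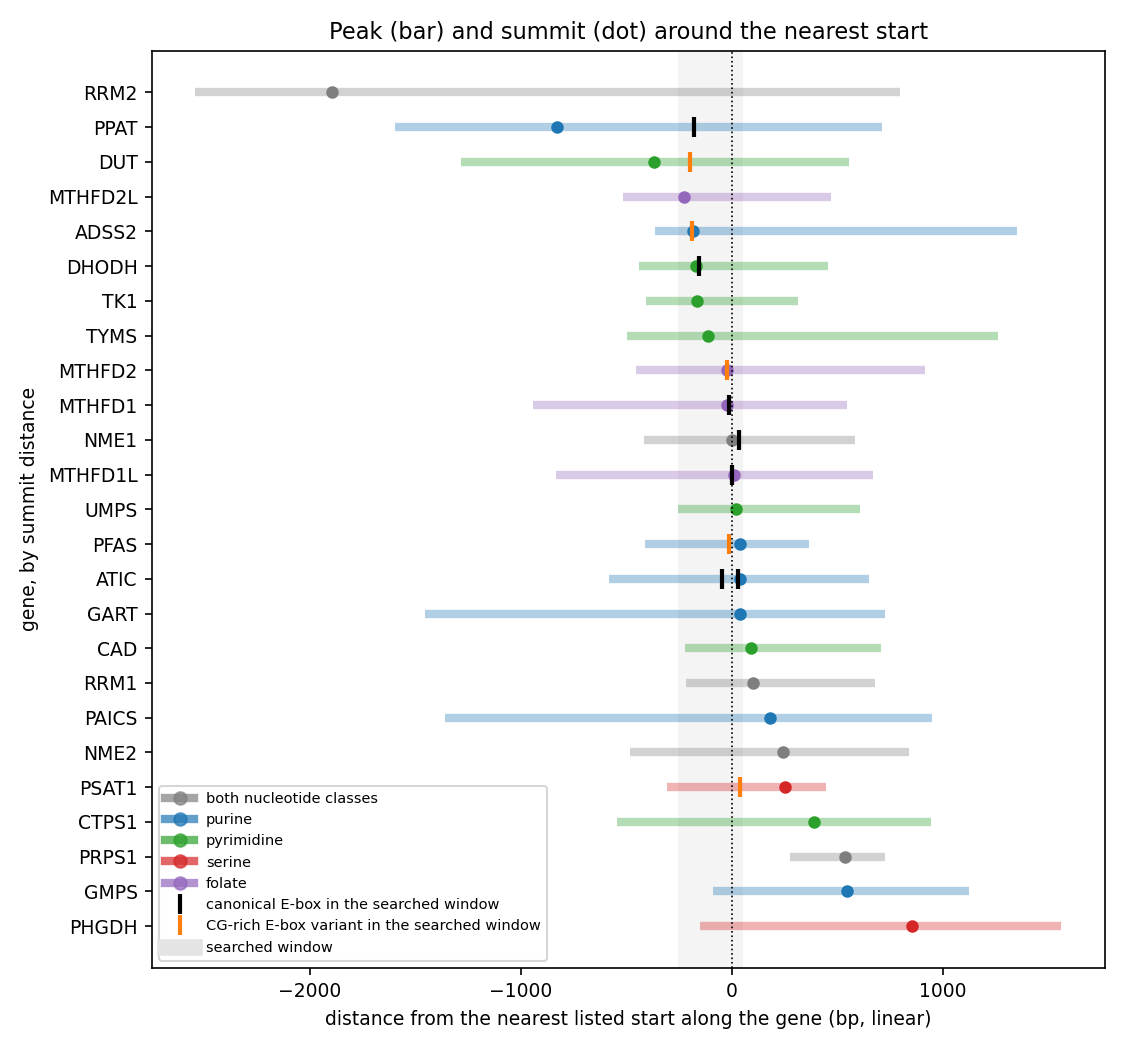
Peak extent (bar) and summit (dot) of 25 genes along the linear x axis in bp from the nearest listed start, negative upstream, with genes ordered by summit position down the y axis. Black and orange ticks mark CACGTG and CACGCG or CGCGTG inside the searched window (grey), and the tick touches or nearly touches the dot in MTHFD1, MTHFD1L, ATIC, DHODH, ADSS2 and MTHFD2.

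Purine synthesis from phosphoribosyl pyrophosphate to inosine monophosphate is carried out by PPAT, GART, PFAS, PAICS, ADSL and ATIC, and each of these 6 genes had a peak with a fold above 11. PPAT, the amidotransferase of the committed step, and PAICS, the bifunctional carboxylase and succinyl-aminoimidazole synthetase, are neighbours on chromosome 4 in opposite orientation and share 1 peak. It ran from 56434900 to 56437212 with 55.4-fold enrichment and a −log10 q of 895, the 35th highest −log10 q of the list. The summit lay 827 bp upstream of the PPAT start and 182 bp downstream of a listed start of PAICS at 56436260. The annotated PAICS span begins at 56410507, far upstream of that start, so that a count by annotated gene ends alone places this summit inside PAICS. The peak is 2313 bp wide, the 45th widest, and also covers the shared E-box, 645 bp from the summit. PAICS had another summit 3349 bp beyond its far end, with a fold of 19.3, at SRP72, a signal recognition particle gene.

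ATIC, which catalyses the last formylation and ring closure to inosine monophosphate, had 36.1-fold enrichment (−log10 q 628, chromosome 2, 215311478 to 215312709), with the summit 40 bp after the start. ADSL, the adenylosuccinate lyase used both in this route and in AMP synthesis, had a fold of 26.4 with the summit 279 bp inside one end of the gene, and a lower peak (6.99) deep within its span beside an end of SGSM3. PFAS, the formylglycinamidine synthase, had 2 summits. The one 40 bp after its listed start had a fold of 23.5 (−log10 q 164), and the other, 1247 bp upstream and beside CTC1, a telomere maintenance gene, had a fold of 19.9. GART, a trifunctional enzyme of 3 of these steps, was the lowest of the 6 at a fold of 11.1, in a peak 2183 bp wide on chromosome 21 that also lies beside an end of SON, a splicing cofactor gene. Its summit was 41 bp after the innermost of 3 listed starts and 816 bp after the outermost.

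Beyond inosine monophosphate the folds were mostly lower, and here isozymes differed. On the guanine branch IMPDH2, the dehydrogenase isozyme typical of proliferating cells, had a fold of 25.3 (−log10 q 241) at a peak shared with the end of QRICH1, with a summit 41 bp inside an annotated end of the gene. A lower summit 2251 bp outside IMPDH2 (9.47) lay at DALRD3. IMPDH1 had none, and the nearest summit was 45864 bp away, at HILPDA. GMPS, which converts xanthosine to guanosine monophosphate, had 9.26-fold enrichment (−log10 q 40.3), close to the median over all genes with a peak by fold and below it by −log10 q. On the adenine branch ADSS2, the broadly expressed adenylosuccinate synthase, had a fold of 13.0 with a −log10 q of 56.8, and ADSS1, the muscle-type isozyme, had no summit within 5000 bp. The nearest to ADSS1 was 5927 bp away, at SIVA1.

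In pyrimidine synthesis the first enzyme gene, CAD, led. CAD encodes the trifunctional carbamoyl phosphate synthetase, aspartate transcarbamylase and dihydroorotase, and it had 26.5-fold enrichment (−log10 q 434, chromosome 2, 27217147 to 27218077), with the summit 90 bp after the start and an end of ATRAID within 1000 bp. That summit lies beyond the sequence searched for motifs, which held no E-box. DHODH, the dihydroorotate dehydrogenase of the inner mitochondrial membrane, had a fold of 11.5, and UMPS, which completes uridine monophosphate, one of 9.15, with summits 170 bp upstream and 20 bp downstream of their starts. CTPS1, the CTP synthase, had a fold of 21.6 (−log10 q 302) with the summit 391 bp after the start, and a narrow peak of 349 bp (fold 13.2) 15345 bp from the nearest listed start, inside the gene. Its isozyme CTPS2 on chromosome X had no summit within 5000 bp. The nearest lay 6573 bp away, at SYAP1, with a fold of 5.48.

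For the thymidylate steps, TYMS, the methyltransferase that uses folate-bound carbon, had 26.0-fold enrichment (−log10 q 319), with the summit 112 bp upstream and the antisense gene TYMSOS at the same site. DUT, which supplies dUMP by cleaving dUTP, had a fold of 15.2 in a peak 1839 bp wide that spans its 4 listed starts. TK1, the thymidine kinase of the salvage route, had the lowest fold of the pyrimidine genes at 5.24, below the lower quartile of all genes with a peak. Its summit lay 165 bp upstream of the nearest TK1 start and 7 bp after the listed start of AFMID. Over the 8 pyrimidine genes, 7 had a peak, with a median fold of 15.2. Over the 11 purine genes, 9 did, with a median of 25.3.

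Steps that serve both nucleotide classes held the highest values and some of the lowest. NME1, a nucleoside diphosphate kinase, had the highest −log10 q of the 34 genes at 1069, the 18th highest of the list, with a fold of 49.0 (chromosome 17, 51153145 to 51154144). Its summit lay 4 bp after the start, which is also that of the NME1-NME2 readthrough gene. NME2, the second kinase of the tandem pair, had a peak of its own with the highest fold of the 34 at 55.9 and a −log10 q of 655 (51166020 to 51167340). Its summit was 1208 bp after the outermost NME2 start and 243 bp after the nearest, and 4576 bp beyond the end of NME1. By fold NME2 stood above NME1, and by −log10 q the order was the opposite.

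RRM2, the regulated subunit of ribonucleotide reductase, had 28.9-fold enrichment (−log10 q 760) in a peak of 3344 bp, the 3rd widest of the list. The peak (chromosome 2, 10120025 to 10123368) covers both listed starts, but its summit lay 1894 bp upstream of the nearer one, outside the 1000 bp window. RRM1, the large catalytic subunit, had a fold of 8.66 with a −log10 q of 86.6, and its summit was 101 bp after the start. PRPS1, a synthetase of phosphoribosyl pyrophosphate on chromosome X, had a fold of 8.36 and the second lowest −log10 q of the 29 genes at 23.6. PRPS2, also on chromosome X, had no summit nearer than 552715 bp.

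**Figure D3:**
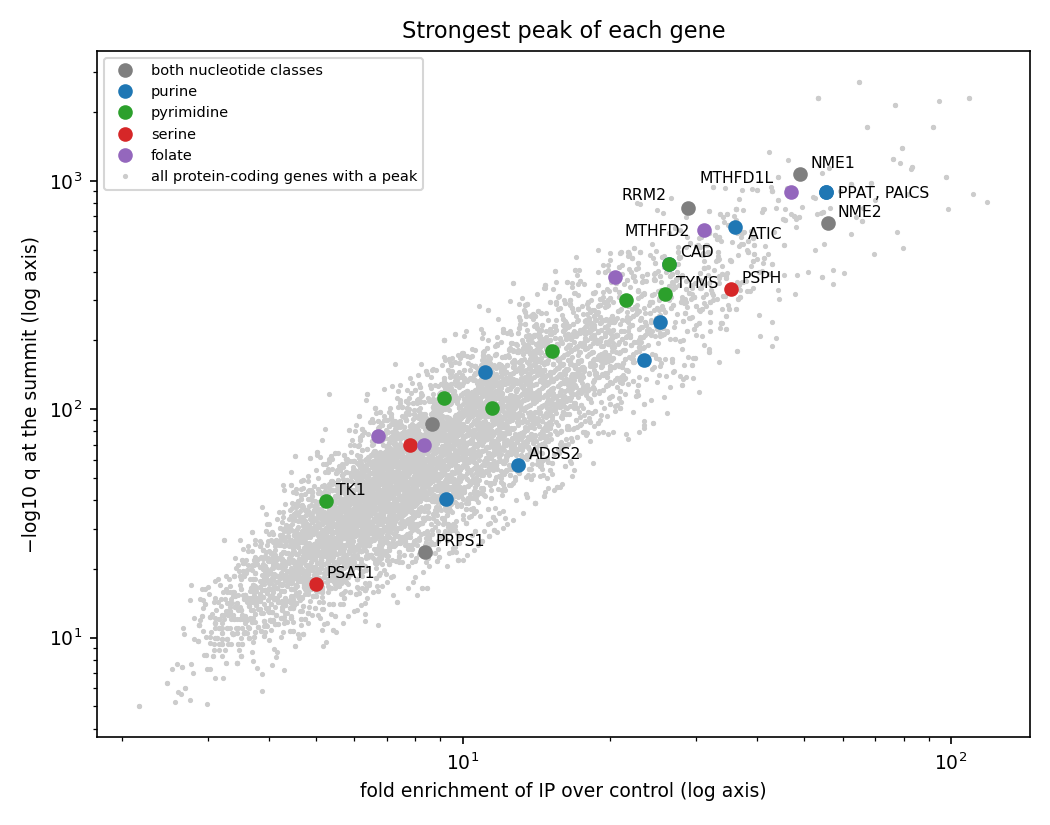
Fold enrichment against −log10 q (both log axes) of the strongest peak of the 29 genes with a peak, coloured by pathway, over the same values for all 9520 protein-coding genes with a peak (grey). NME1, MTHFD1L, PPAT with PAICS, and NME2 lie toward the upper right, and PSAT1 is the lowest of the 29 on both axes.

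The serine genes had peaks at 3 of 3, but at unlike heights. PHGDH, the dehydrogenase that draws 3-phosphoglycerate into the pathway, had a fold of 7.79 (−log10 q 69.6) with the summit 854 bp after the start, the farthest downstream of the 24. PSAT1, the transaminase, had the lowest fold and −log10 q of the 29 genes, 5.01 and 17.2. PSPH, the phosphatase of the last step, had a fold of 35.4 (−log10 q 335, chromosome 7, 56051182 to 56052256). That summit lay 360 bp outside the annotated PSPH span, within 1000 bp of an end of CCT6A, a chaperonin subunit gene, and the peak list cannot assign it to either gene.

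The folate genes had peaks at 5 of 6, with a median fold of 20.5, and all 4 with a mitochondrial product were among them. MTHFD1L, the mitochondrial formyl-tetrahydrofolate synthetase that releases formate, had 47.1-fold enrichment (−log10 q 896, chromosome 6, 150865502 to 150867001), and its −log10 q was the 34th highest of the list. MTHFD2, the mitochondrial dehydrogenase and cyclohydrolase, followed with a fold of 31.2 (−log10 q 612, chromosome 2, 74198161 to 74199534). MTHFD1, the cytosolic trifunctional enzyme, had 20.5-fold enrichment (−log10 q 378). Their summits lay 11 bp after, 24 bp before and 23 bp before the nearest start. SHMT2, the mitochondrial serine hydroxymethyltransferase that feeds this branch, had a fold of 8.31 (−log10 q 69.8), and MTHFD2L, a second mitochondrial dehydrogenase, one of 6.69. The MTHFD2L summit lay 225 bp upstream of a listed start that is internal to the annotated span, 43333 bp from its nearer end. SHMT1, the cytosolic isozyme, had no summit nearer than 12867 bp, at TOP3A.

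The 5 genes without a peak were PRPS2, IMPDH1, ADSS1, CTPS2 and SHMT1. Of the 34 genes, 18 form 9 pairs of isozymes, paralogs or subunits, and in each of 5 pairs 1 gene had a peak and the other did not. All 16 genes outside pairs had a peak. In the 4 pairs with a peak at both genes, the higher fold exceeded the lower by 4.66 times for MTHFD2 over MTHFD2L, 3.34 times for RRM2 over RRM1, 2.3 times for MTHFD1L over MTHFD1 and 1.14 times for NME2 over NME1. With no replicate values, whether these ratios exceed the spread between libraries is unknown. By distance, ADSS1 and CTPS2 lay just outside the 5000 bp limit at 5927 and 6573 bp. No strongest peak lay near the limit on the inner side, where RRM2 at 1894 bp and PPAT at 827 bp were the farthest outside their genes.

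**Figure D4:**
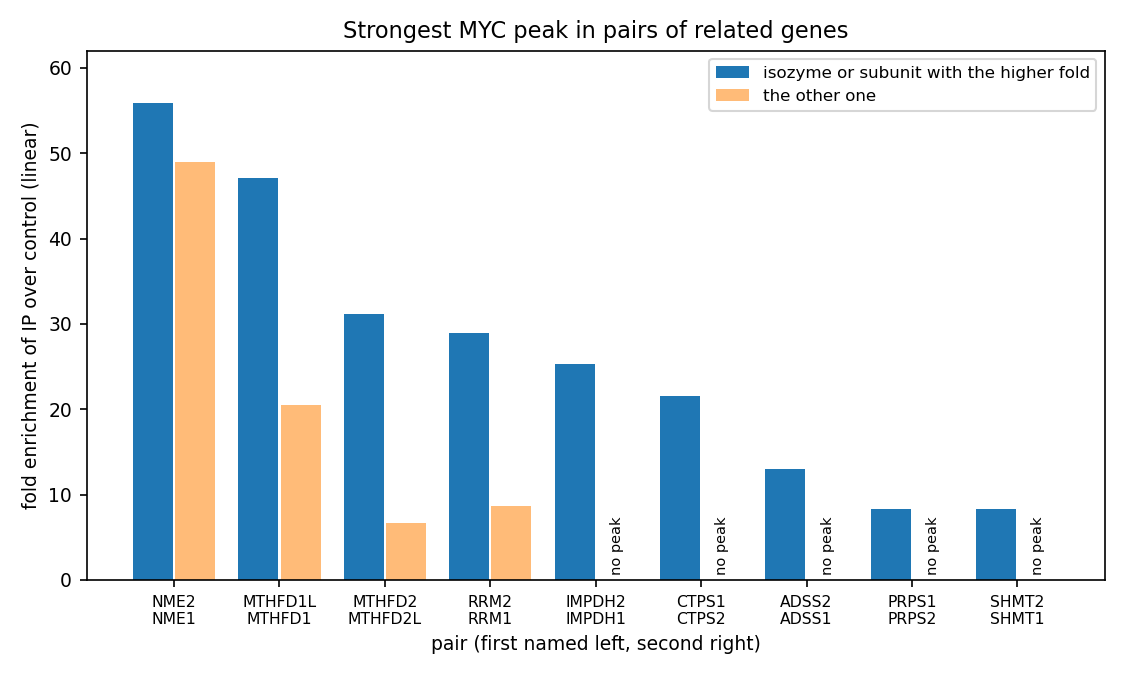
Fold enrichment (linear y axis from 0) of the strongest peak in 9 pairs of related genes on the x axis, with the gene of the higher fold at the left of each pair. In 5 pairs the second gene has no summit inside or within 5000 bp.

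Among other features, 6 of the 34 genes had 2 summits (17.6%), beside 7.84% of all protein-coding genes with 2 or more. Both shares include genes without a peak. Among genes with a peak the counts were 6 of 29, beside 1565 of 9520. The weaker summit lay beside an end of another protein-coding gene in PAICS, IMPDH2, PFAS and ADSL. In NME1 it was the peak of NME2, and in CTPS1 it lay inside the gene. In total 33 different peaks were assigned to the 29 genes. An end of another protein-coding gene lay within 1000 bp of the strongest summit in 7 of the 29 (24.1%), beside 33.7% of all protein-coding genes with a peak. Those genes were NME1, GART, PAICS, IMPDH2, CAD, TK1 and PSPH, and for these the peak list cannot tell which gene the MYC signal belongs to. Either annotated end of the other gene counted, so it need not be a start. For NME1 the only other gene is the NME1-NME2 readthrough gene, which has the same start. PPAT is outside this count, which uses annotated gene ends, because the annotated PAICS span begins far from the summit. The only PPAT peak is nevertheless the one shared with PAICS, so it cannot be assigned to either gene. Base composition was similar to that of other genes with a summit near the start. The 24 genes had a median GC content of 65.0% and 26.5 CpG in the 300-base window, and all 6560 such genes had 66.7% and 29. The 6 genes with a listed start and no summit within 1000 bp of it had 70.5% and 25.5.

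CACGTG was searched in the 300-base window at the start nearest to a summit, where it reads the same on both strands. It was present in 6 of the 30 genes, and in 9.04% of 15812 protein-coding genes. The 6 are MTHFD1, MTHFD1L, ATIC, DHODH, NME1 and PPAT, and PAICS joins them if any of its listed starts may count. In 13 of the 30 the summit itself lay in the window. CACGTG was present in 5 of these 13 (38.5%), beside 17.3% of the 3640 protein-coding genes with a summit in the window. Those with it had folds from 11.5 to 49.0 with a median of 36.1, and the 8 without it had folds from 5.24 to 31.2 with a median of 12.0. The ranges overlap. Over all genes the median was 11.0 with CACGTG (630 genes) and 8.15 without it (3010 genes).

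The summit stood close to the E-box where both lay in the window. It was 6 bp from the downstream E-box of ATIC, 7 bp from that of MTHFD1L, 8 bp from that of MTHFD1, 11 bp from that of DHODH and 30 bp from that of NME1. Over the 630 protein-coding genes with both, the median distance was 19.5 bp and 55.9% lay within 25 bp, so this closeness was common to MYC peaks of many promoters. CACGCG or CGCGTG was present in 5 of the 30 genes (16.7%), beside 15.3%. In MTHFD2 the summit fell inside CGCGTG, 24 bp upstream of the start, and in ADSS2 it was 2 bp from CACGCG, while in PFAS the distance was 52 bp. In DUT and PSAT1 the summit lay outside the window, 170 and 212 bp from CACGCG. The other variant, CATGTG or CACATG, was present in 1 of 30, PFAS, 284 bp from the summit. No searched motif overlapped another in these genes. A match of letters is a description of the window and does not show which base MYC contacted.

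**Figure D5:**
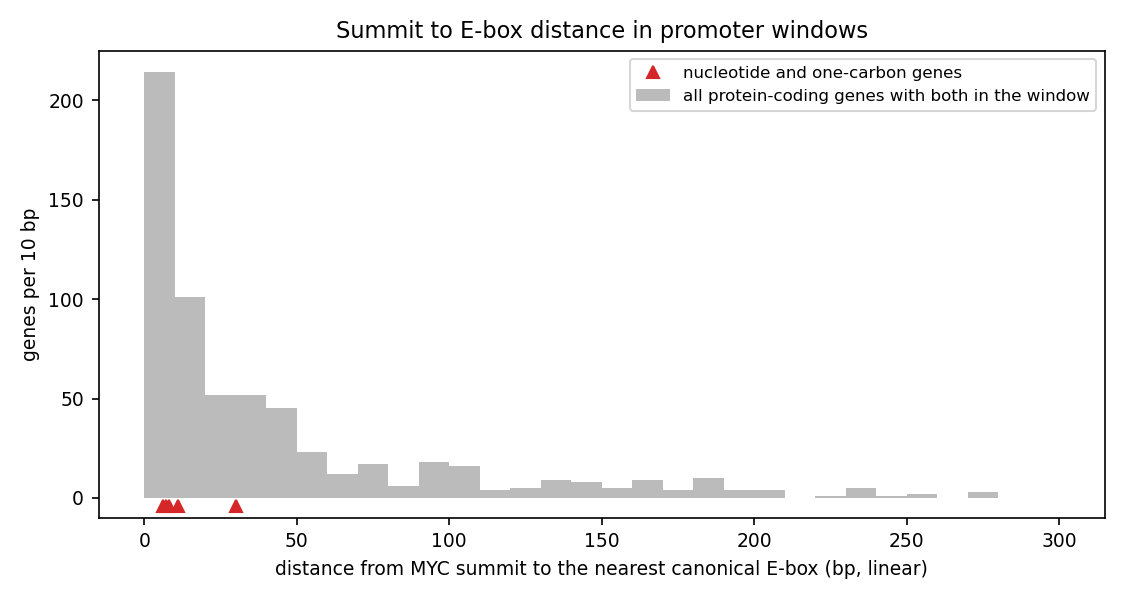
Distance in bp (linear x axis) from the MYC summit to the nearest CACGTG in the 630 protein-coding genes with both in the promoter window, as genes per 10 bp (grey bars), with the 5 nucleotide and one-carbon genes as red triangles below the axis. The triangles lie between 6 and 30 bp, and 55.9% of the 630 genes lie within 25 bp.

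A further 58 genes of the same pathways, for salvage, interconversion, folate handling and serine or glycine use, gave 47 with a summit inside or within 5000 bp (81.0%, beside 47.7% of all protein-coding genes). Their median fold was 11.2, between the 21.6 of the 34 synthesis genes and the 8.56 of all genes with a peak. A fold of 20 or more was found at 8 of the 47 (17.0%), beside 9.25% of all protein-coding genes with a peak. The highest by −log10 q were FPGS, which adds glutamate tails to folates (fold 37.3, −log10 q 599), AMPD2, an AMP deaminase (20.9, 421), and SLC1A5, a neutral amino acid transporter (27.0, 354).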

How the data were processed

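The series holds 2 MYC immunoprecipitation libraries and 1 input library from U2OS cells. MACS2, Picard, SAMtools, Bowtie2 and cutadapt, and the builds hg38, mm10 and hg19, are named in the submitters' processing notes. Versions, settings and roles, the use of the mouse reads and any pooling of libraries are unstated there. The deposited peak list is on hg38 and gives, by the authors, a fold enrichment (linear ratio), a −log10 p-value, a −log10 q-value and a score. In 99.8% of peaks the deposited score is 10 times the −log10 q without decimals, and neither it nor the p-value was used. Depth is unknown.

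Peaks were joined to RefSeq spans and starts of GRCh38.p14 with Python 3.11.15 and pandas 2.3.3, by the summit, within 5000 bp of genes and 1000 bp of starts. The strongest peak is that of the highest −log10 q. The E-box CACGTG, its variant CACGCG and the further variant CATGTG were searched on both strands of the 300-base RefSeq promoters. All 34 genes were named by rule, with 3 of the other pathway genes. Genes and lists were chosen with earlier results of these data known. No test was made, since the list holds no replicate values. The steps were tested on simulated data with 200 planted peaks, all found in their gene windows. The motif search was tested with 200 motifs planted in sequences of A and T only, all found in place.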

Additional observations from a re-analysis of the deposited data

How the results depend on the processing

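The counts of genes stayed within 1.5 times under every setting tried. By gene span, 25 to 31 genes had a summit, beside 26.8% to 50.9% of all protein-coding genes. By start, 20 to 25 did, beside 23.1% to 44.6% of all genes. One of the settings by start took either annotated end of all 34 genes, and gave 24, beside 37.6%. No share over all genes was computed with shared peaks counted once. The median fold was 20.5 with windows of 500 and 10000 bp, 21.0 with 1000 bp, with any base of the peak and with shared peaks counted once, and 25.3 in the stronger 50% of peaks and at a −log10 q of at least 50. At the peak nearest to a start, a setting added after seeing the data, it was 17.8, beside 8.38 over all such genes. The median −log10 q was 179 with 500 and 10000 bp, 210 with 1000 bp, with any base and with shared peaks counted once, and 319 in the stronger 50% and at a −log10 q of at least 50. In each of these settings the median fold was above that over all genes, as was the median −log10 q in those where it was computed, which leaves out the peak nearest to a start. Counting any base of the peak adds ADSS1, and a window of 10000 bp adds ADSS1 and CTPS2, so the split of those 2 pairs rests on the window. No library could be left out, since no value per library was analysed. No paired analysis was possible because the peak list carries no replicate values.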

Other observations

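Over all protein-coding genes with a listed start, the hexamers differed in how often they stood in windows that held a MYC summit. CACGTG was present in 17.3% of the 3640 windows with a summit and in 6.2% of the 9252 without one within 1000 bp. CACGCG or CGCGTG was present in 25.7% and 10.5%. CATGTG or CACATG went the other way, with 6.04% and 10.4%. In the 2920 windows with a summit within 1000 bp but outside the window, the shares were 7.71%, 17.7% and 4.59% in the same order. Windows of genes with a summit within 1000 bp, whether inside the window or not, had a median of 29 CpG, and those without one had 13. The part of this difference in the hexamer shares was not tested.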
